A study of Rattus norvegicus with 65 samples.

Results

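Ugt2b, Ugt2b1, Ugt2b7, Sult2a6, Sult2a1 and Sult1c2 are 6 conjugation genes of the rat liver, of 14217 genes with a probe set of their own on the array. They were chosen by name, with earlier values of the same livers in view, and every probe set annotated to only that symbol was taken. This gave 7 probe sets, 2 of them for Ugt2b, and 1 further probe set that names Sult1c2 beside another gene was left out. The values that had singled the genes out were the low Ugt2b signal of single rats and of the NGTX control, Sult2a6 in the short training groups, Sult1c2 in the long training groups and Ugt2b1 in 2-AAF long. These are described below without a test.

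Liver RNA was measured in 65 male Sprague-Dawley rats that were 6 weeks old, 1 array per rat, of which 6 were untreated and the rest were given 1 of 10 liver carcinogens. The compounds of the genotoxic (GTX) set are 2-AAF, 3MeDAB and DEN, those of the nongenotoxic (NGTX) set are 1,4-Dioxane, Clofibrate and DL-Ethionine, and those of a test set are DCP, ME, SN and Urethane. Each compound has a long and a short group of 3 rats, except DEN short with 2, and the GTX and NGTX sets each have 1 control group of 3 untreated rats with no time stated. The labels and the treatment protocol give different times for the long and short groups, so only these words are used. The protocol names repeated dosing, and the test set labels give 1 time for short and 3 times for long groups. Long against short is therefore not a difference of time alone. The sample labels of the other sets give no such count. The test set has no control, and doses have no unit in the labels and were not used. All values are log2 signals, and the array minima differ between the sets (3.33 to 3.41 in GTX, 3.23 to 3.30 in NGTX and 2.28 to 2.40 in test), so the sets were treated as normalized apart and no difference below crosses sets unless it says so. Of 7 hepatocyte markers 6 are on the array, and their mean level was between 13.67 and 14.24 on every array. In RNA of whole tissue, fewer cells of a type and less RNA per cell cannot be told apart.

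UDP-glucuronosyltransferases of the 2B family sit in the membrane of the endoplasmic reticulum and join glucuronic acid, carried by UDP-glucuronic acid, to steroids, bile acids and drugs. Cytosolic sulfotransferases move a sulfate group from the carrier PAPS onto hydroxyl groups of steroids, bile acids, phenols and some carcinogens. Both reactions make their substrates easier to excrete, although sulfonation of some hydroxylated arylamines and alkenylbenzenes yields reactive esters. In rats several of these genes differ between the sexes and respond to growth hormone and to nuclear receptors such as CAR and PXR.

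The 3 UGT genes lie on chromosome 14 of the GRCr8 assembly, on the plus strand: Ugt2b at chr14:20985449-21006267, Ugt2b7 at chr14:21251535-21274451 and Ugt2b1 at chr14:21378882-21390631. RefSeq lists Ugt2b2, the androsterone-conjugating enzyme, as a synonym of Ugt2b. Sult2a6 at chr1:84046685-84097808 and Sult2a1 at chr1:84582011-84639001, hydroxysteroid and bile acid sulfotransferases, lie on the minus strand of chromosome 1. Sult1c2, a sulfotransferase of the 1C subfamily, lies at chr9:7436981-7486894 on the plus strand. Where genes of a family share sequence, whether a probe set of one also takes up RNA of another was not tested.

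Promoters are shown for the 2 pairs of members that share sequence there, as RefSeq gives them for GRCr8, each 300 bases long with the start that RefSeq's table uses at base 251. For Sult2a1 that start lies inside the gene's span given above. In the pair Ugt2b (chr14:20985199-20985498, plus strand) and Ugt2b7 (chr14:21251285-21251584, plus strand), the capitals mark the longest run of bases that both hold, 25 bases that begin at -74 from the start of Ugt2b and at -90 from that of Ugt2b7. In the pair Sult2a6 (chr1:84097759-84098058, minus strand) and Sult2a1 (chr1:84638898-84639197, minus strand), the capitals mark the 8 of 300 bases that differ, an identity of 97.3%.
Ugt2b: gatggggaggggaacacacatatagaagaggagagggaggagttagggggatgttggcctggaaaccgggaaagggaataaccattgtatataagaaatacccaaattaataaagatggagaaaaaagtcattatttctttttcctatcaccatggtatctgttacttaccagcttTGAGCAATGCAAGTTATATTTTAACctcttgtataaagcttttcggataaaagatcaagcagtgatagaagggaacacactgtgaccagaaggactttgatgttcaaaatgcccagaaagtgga
Ugt2b7: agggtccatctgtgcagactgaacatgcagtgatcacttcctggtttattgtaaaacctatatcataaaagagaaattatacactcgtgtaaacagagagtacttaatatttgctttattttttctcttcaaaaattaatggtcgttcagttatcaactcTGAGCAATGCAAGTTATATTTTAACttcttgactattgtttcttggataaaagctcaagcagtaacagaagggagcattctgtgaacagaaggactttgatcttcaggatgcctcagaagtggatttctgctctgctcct
Sult2a6: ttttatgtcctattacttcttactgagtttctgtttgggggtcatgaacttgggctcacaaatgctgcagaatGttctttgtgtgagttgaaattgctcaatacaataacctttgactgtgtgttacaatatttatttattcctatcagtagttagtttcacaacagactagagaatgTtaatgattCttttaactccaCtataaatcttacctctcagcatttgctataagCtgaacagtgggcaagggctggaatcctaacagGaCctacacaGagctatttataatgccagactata
Sult2a1: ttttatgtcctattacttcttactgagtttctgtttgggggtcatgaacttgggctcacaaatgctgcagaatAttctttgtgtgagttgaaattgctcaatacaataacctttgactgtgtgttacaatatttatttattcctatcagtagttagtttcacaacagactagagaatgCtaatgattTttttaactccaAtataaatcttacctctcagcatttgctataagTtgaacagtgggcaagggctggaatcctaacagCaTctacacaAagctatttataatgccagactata

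The run shared by Ugt2b and Ugt2b7, TGAGCAATGCAAGTTATATTTTAAC, was searched on both strands and stands in 7 of 33469 promoters (0.0209%), which include Ugt2b15, Ugt2b35, Ugt2b37 and Ugt2b7l1, but not Ugt2b1. The inverted repeat GGGTCATGAACT, also searched on both strands and a kind of element known in rat Sult2a promoters as a site of nuclear receptors, begins at -212 in both Sult2a6 and Sult2a1. It stands in 8 promoters (0.0239%), among them that of Sult2a2. The letters GTTAAT, the core of sites of the liver factor HNF1, stand on either strand in 7.45% of promoters and among the 6 members in that of Sult2a6 only. These matches describe letters within the window.

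Ugt2b, the androsterone UDP-glucuronosyltransferase, was either high or low in a liver, with nothing between 9.58 and 12.66 on its brighter probe set. In the GTX set, the 3 rats of 2-AAF long had 13.28, 13.00 and 12.83, and those of 2-AAF short had 13.44, 13.38 and 7.91. The 3MeDAB rats had 12.90, 13.33 and 13.29 in the long group and 13.31, 13.59 and 13.45 in the short group. The DEN rats had 13.56, 13.65 and 13.21 in the long group and 13.20 and 13.44 in the short group. All of these treated livers but 1, rat 3 of 2-AAF short, were therefore high. The GTX control rats had 8.14, 13.38 and 13.30, so 1 of the 3 controls was low as well.

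In the NGTX set every treated liver was high and every control was low. The 1,4-Dioxane rats had 13.24, 13.38 and 13.55 in the long group and 13.32, 13.39 and 13.33 in the short group. The Clofibrate rats had 13.48, 13.62 and 13.46 in the long group and 13.14, 13.17 and 13.44 in the short group. The DL-Ethionine rats had 13.47, 13.46 and 13.16 in the long group and 13.30, 13.41 and 13.52 in the short group. Against these 18 livers, the 3 NGTX controls had 6.81, 6.85 and 6.10, and no treated array overlapped them.

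In the test set, low livers were spread over 5 of the 8 groups. The DCP rats had 12.85, 12.87 and 9.58 in the long group and 12.66, 7.11 and 5.47 in the short group. The ME rats had 12.90, 12.89 and 12.98 in the long group and 8.24, 12.80 and 12.98 in the short group. The SN rats had 12.81, 7.37 and 12.94 in the long group and 13.05, 13.08 and 12.84 in the short group. Only rats of one treatment and time are set side by side here, and low rats stood beside high ones in both durations. The Urethane rats had 13.11, 13.11 and 12.97 in the long group and 12.89, 12.83 and 6.28 in the short group.

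**Figure D1:**
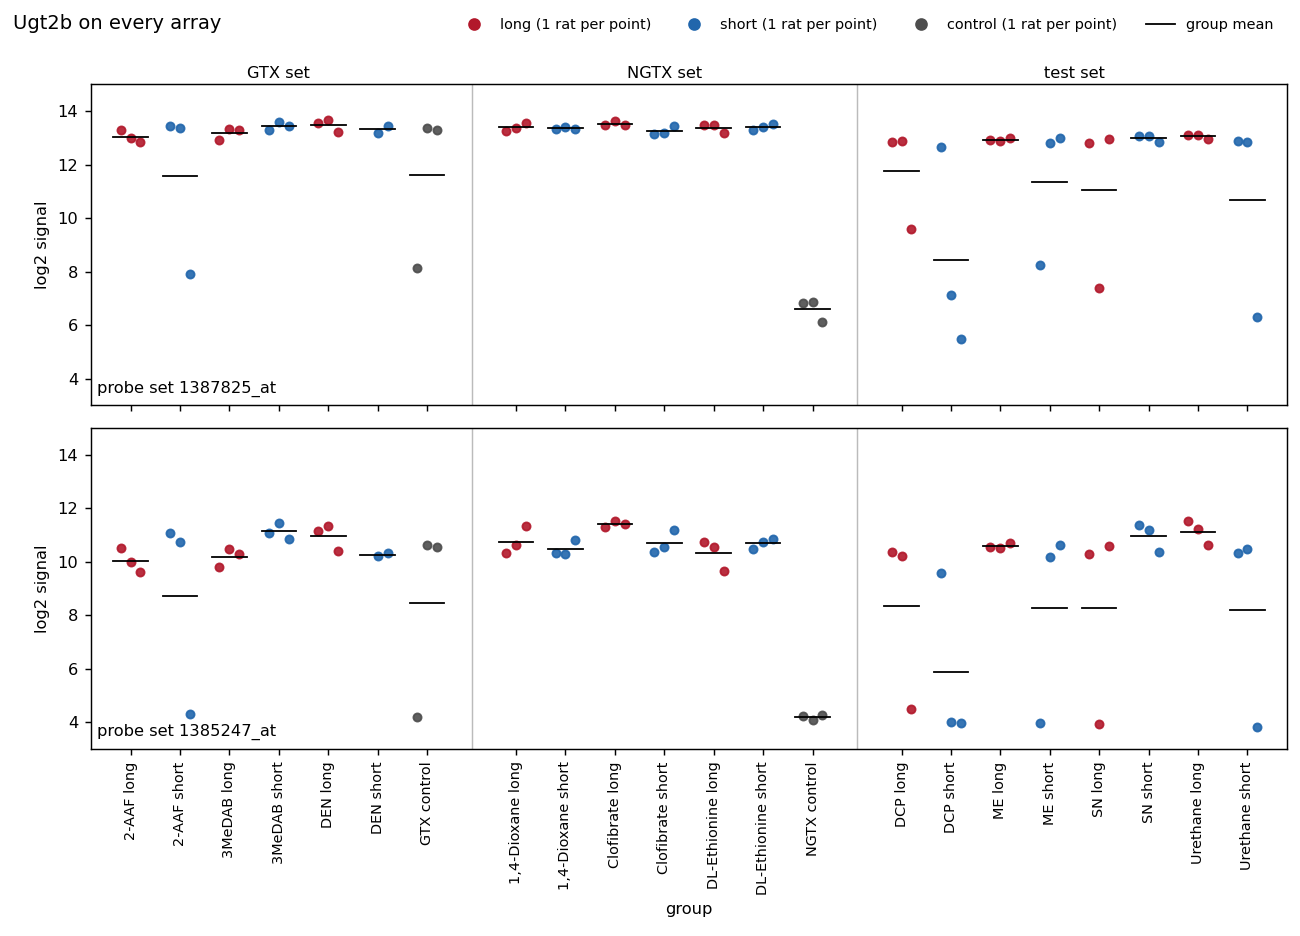
Ugt2b log2 signal (y axis) on every array by group (x axis), upper panel the brighter probe set and lower panel the other; points are rats, lines group means. Both panels show 11 low arrays, among them all 3 NGTX controls, and 54 high arrays.

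In all, 11 arrays lay below the largest gap and 54 above it, and the gap of 3.09 compares with 1.33 for the next largest. Arrays fell on both sides of the gap in 7 groups, all above it in 14, and all below it in the NGTX control alone. The second Ugt2b probe set, which has its own scale, ran from 3.80 to 4.48 in the low arrays and from 9.57 to 11.53 in the high ones, a gap of 5.09. It put all 65 arrays on the same side as the first. The ratio of the 3' to the 5' Gapdh probe set, a sign of RNA breakdown, as a log2 difference, averaged between 0.42 and 0.69 in the 6 treated NGTX groups and 0.68 ± 0.21 (SD, n = 3) in the NGTX control. Its part in the Ugt2b signal was not tested.

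The Ugt2b differences against control rest on which single rats were low, and are given without a test. The 6 NGTX differences ran from 6.66 ± 0.92 to 6.93 ± 0.92 (log2 ± SE), which is 101- to 122-fold. The 6 GTX differences ran from -0.03 ± 0.92 to 1.87 ± 0.92, and with GTX control rat 1 left out they ran from -1.76 to 0.14. The lower end is 2-AAF short, whose own rat 3 was low, and leaving out that rat instead gave 1.80. The mean effect of the GTX compounds minus that of the NGTX compounds was -5.21 ± 1.06 at the long and -5.57 ± 1.07 at the short duration, and -0.19 and -0.56 between the treated arrays alone with no controls, across sets. Among test groups the arrays of a compound overlapped those of the other 3 in all 8 comparisons.

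Ugt2b1, a glucuronosyltransferase of steroids and drugs that phenobarbital induces in rats, was higher than in control in most training groups. Of 11 comparisons tested, 9 were called higher and none lower, at an adjusted p under 0.05 in limma with Benjamini-Hochberg adjustment over 18034 probe sets. Over the 12 training comparisons, 14.9% of all probe sets were called in either direction, and the members had 14 calls in 35 tests, all of them higher. Only these 35 of 72 member comparisons were tested. Left without a test were Sult1c2 in the long groups, with differences from -3.96 to -0.09, and Ugt2b and the short groups of Sult2a6, mostly above 0. The shared direction of the 14 calls thus depends on which comparisons were tested. The members were chosen with such values known and the comparisons of a set share its control, so these calls are not independent of one another.

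In the GTX set, the long groups of Ugt2b1 lay above the control, and DEN long overlapped DEN short. The 3MeDAB long rats had 13.48, 13.53 and 13.53, against 11.46, 12.59 and 12.52 in the GTX control, a difference of 1.33 ± 0.20 (adjusted p = 1.9e-06). The called share of all probe sets was 49.7% in this comparison, 14.2% in DEN long and 17% in DEN short. The DEN long rats had 13.18, 13.12 and 12.98 (0.91 ± 0.20, adjusted p = 0.00158) and the 2 DEN short rats 13.00 and 12.84 (0.73 ± 0.22, adjusted p = 0.0215). No array of these 3 groups overlapped the control. The 2-AAF long rats, described without a test, had 13.60, 13.73 and 13.75, the highest group of the set. The 2-AAF short and 3MeDAB short groups overlapped the control and were not called, with differences of 0.24 ± 0.20 (adjusted p = 0.541) and 0.04 ± 0.20 (adjusted p = 0.954).

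GTX control rat 1, low in Ugt2b, was also the lowest control in Ugt2b1. Without it the DEN short difference was 0.36 and no longer called (adjusted p = 0.214), and the DEN long difference was 0.54 (adjusted p = 0.0375). The DEN short call was also lost without DEN short rat 2 (0.65, adjusted p = 0.156) or rat 3 (0.81, adjusted p = 0.0813), and over its alternatives the adjusted p ran from 0.00654 to 0.214. With only the compared groups in the fit, neither DEN call was made (adjusted p = 0.0587 for long and 0.158 for short). Without that control rat the 3MeDAB long difference was 0.96, and the 2-AAF short and 3MeDAB short differences were -0.13 and -0.32.

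In the NGTX set, Ugt2b1 was called higher in all 6 treated groups. The 18 treated rats ran from 12.49 to 13.38, against 11.57, 11.67 and 11.46 in the 3 control rats, with no overlap. The differences were 1.59 ± 0.20 in 1,4-Dioxane long, 1.55 ± 0.20 in Clofibrate long and 1.42 ± 0.20 in DL-Ethionine long (adjusted p = 9.03e-05, 0.000147 and 5.01e-07). In the short groups they were 1.21 ± 0.20 in 1,4-Dioxane, 1.29 ± 0.20 in Clofibrate and 1.31 ± 0.20 in DL-Ethionine (adjusted p from 0.000313 to 0.000659). In Clofibrate long only 17 of 18034 probe sets (0.0943%) were called and in 1,4-Dioxane long only 36 (0.2%), whereas in DL-Ethionine long 48.5% were. In the short groups of these compounds the shares were 5.22% for 1,4-Dioxane, 2.53% for Clofibrate and 5.23% for DL-Ethionine. The 3 control rats to which all 6 differences refer are the 3 that were low in Ugt2b, and a response of Ugt2b1 to the compounds cannot be told apart from a low level in these controls.

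Ugt2b1 was also higher at the long than at the short duration within several compounds, a comparison that uses no control. In 3MeDAB it was higher by 1.28 ± 0.20 (adjusted p = 2.62e-06), and 28.3% of probe sets were called over the 6 training comparisons of durations, where the members had 2 calls in 11 tests (55.5% in 3MeDAB and 47.6% in DL-Ethionine). In 1,4-Dioxane, Clofibrate, DL-Ethionine and DEN the difference was 0.11 to 0.38 and was not called. Among the test compounds it was higher at the long duration by 1.01 ± 0.17 in Urethane (adjusted p = 0.00107), by 0.76 ± 0.17 in DCP (adjusted p = 0.00147) and by 0.75 ± 0.17 in ME (adjusted p = 0.00688, and 0.0834 with only ME arrays in the fit). The members had 6 calls in 16 such tests (4 in 12 without Ugt2b7), all higher at the long duration, where 16.3% of probe sets were called (36.6% in DCP, 14.1% in ME and 10.5% in Urethane). In SN the difference was -0.13 ± 0.17 (adjusted p = 0.744).

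Urethane long and SN long stood at opposite ends of the long test groups in Ugt2b1. The Urethane long rats had 12.68, 12.83 and 12.54, which set them above the mean of the other 3 compounds by 0.56 ± 0.14 (adjusted p = 0.0117). The SN long rats had 11.63, 11.58 and 11.83, a difference of -0.78 ± 0.14 (adjusted p = 0.00413), with no overlap with the 9 other long rats. These comparisons within the test set share arrays, since each compound is part of the mean of the others. Over all 8 of them 14.7% of probe sets were called, and the members had 9 calls in 32 tests, or 5 in 24 without Ugt2b7, which passed the filter in this set only through the groups where it was high. Probe sets called made up 32.8% in DCP long, 2.03% in ME long, 3.87% in SN long, 10.9% in Urethane long and 39.6% in DCP short. The Urethane long call was lost without Urethane long rat 1 (0.57, adjusted p = 0.0562) or rat 2 (0.49, adjusted p = 0.0597), with adjusted p from 0.0058 to 0.0597 over its alternatives. The next groups, DCP long with 12.74, 12.44 and 12.31 and ME long with 12.15, 12.48 and 11.94, overlapped each other and were not called.

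**Figure D2:**
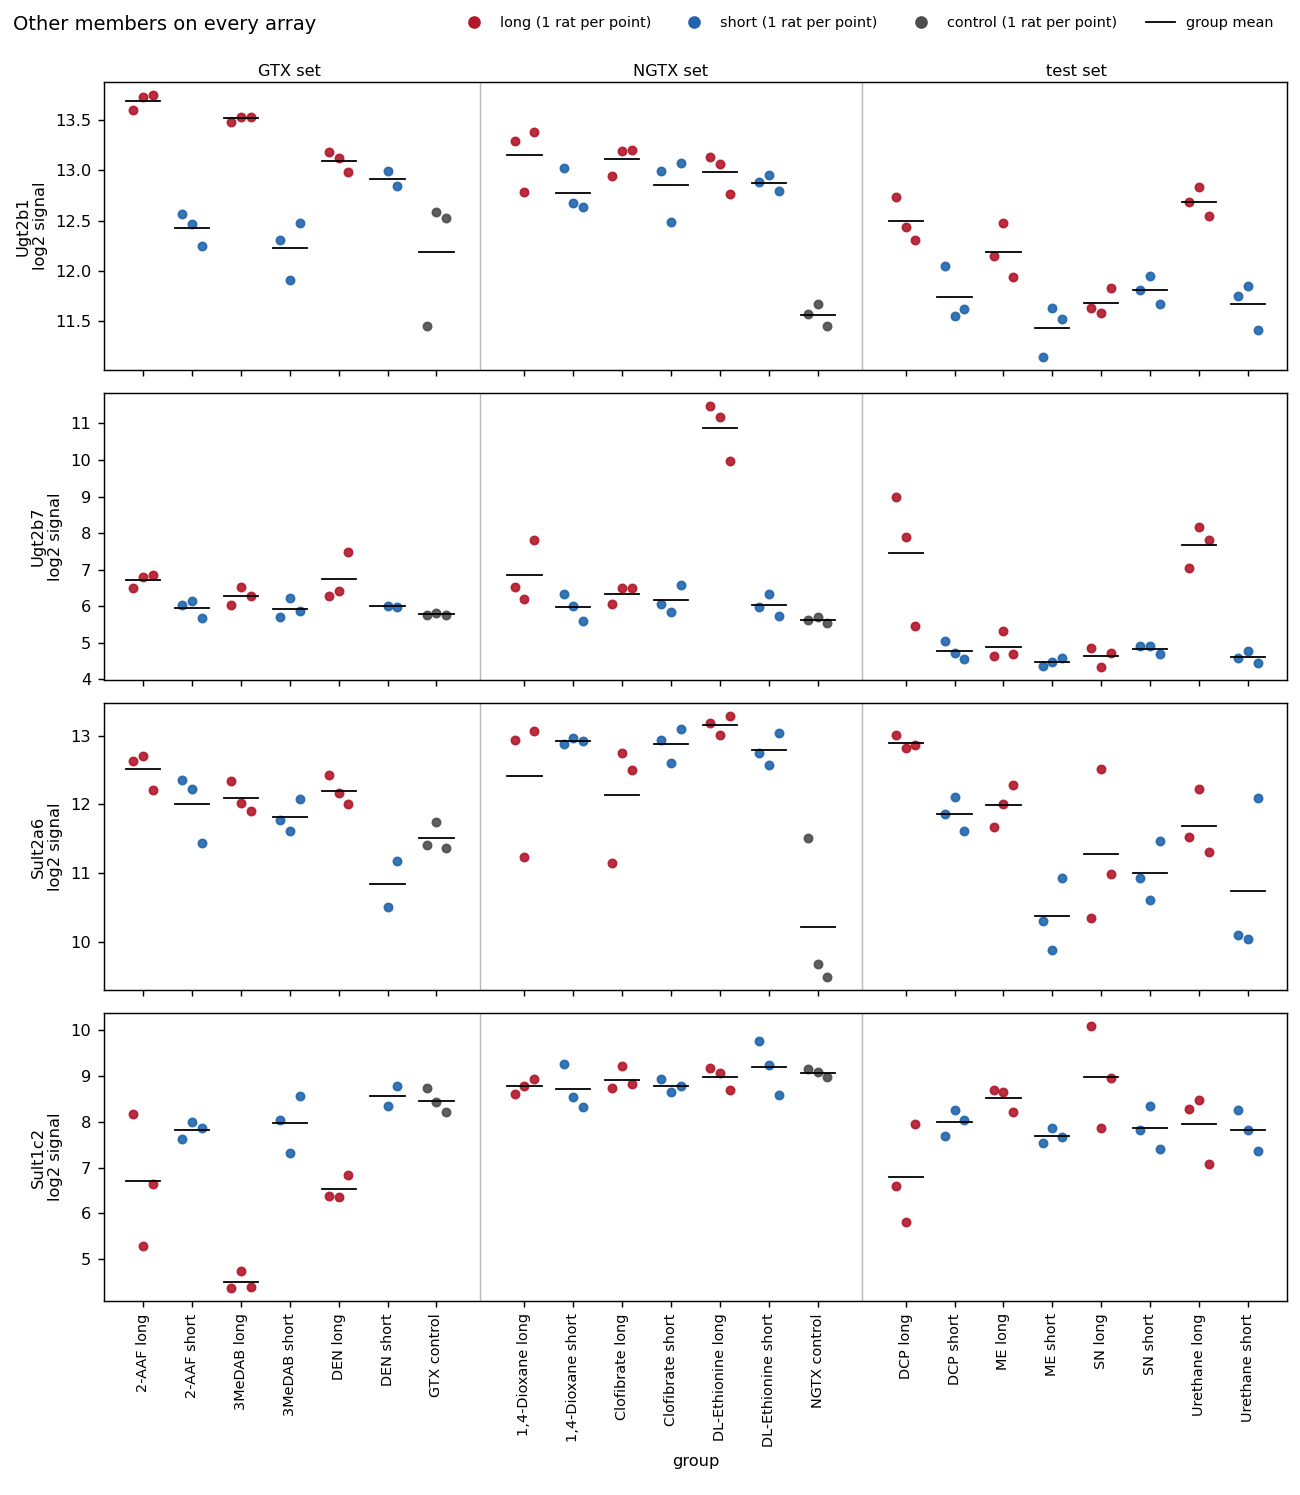
Log2 signal (y axes, each panel with its own scale) of Ugt2b1, Ugt2b7, Sult2a6 and Sult1c2 on every array by group (x axis); points are rats, lines group means. Ugt2b7 is highest in DL-Ethionine long, Sult1c2 lowest in 3MeDAB long, and the NGTX controls lie below all treated NGTX arrays in Ugt2b1.

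Ugt2b7, another UGT of the 2B family, was near the middle of all probe sets in most livers and high in DL-Ethionine long. The 3 DL-Ethionine long rats had 11.49, 11.18 and 9.97, against 5.64, 5.71 and 5.54 in the NGTX control. The difference was 5.25 ± 0.33 (38.0-fold, adjusted p = 2.38e-14), and the arrays lay far apart. In the short DL-Ethionine rats the signal was 5.99, 6.34 and 5.74, so the long group was higher by 4.86 ± 0.33 (adjusted p = 1.64e-13). Over the alternatives the difference against control ran from 4.95 to 5.70.

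In the same livers all 4 measured macrophage markers were called higher (mean level 11.40 to 11.75, against 9.86 to 10.19 in the NGTX control). All 3 endothelial markers were too, at 9.45 to 9.57 against 8.56 to 8.94. Of all probe sets 27.2% were called higher and 21.4% lower in this comparison. The 6 hepatocyte markers had 1 call higher and 1 lower, with mean levels of 14.12 to 14.15 against 14.09 to 14.17. The part of these cell types in the Ugt2b7 signal was not tested.

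Elsewhere in the training sets Ugt2b7 differences were smaller, and with that of DL-Ethionine long all 12 were above 0. They share the GTX and NGTX controls, whose rats ran from 5.54 to 5.81, below the filter on low values (6.21). The gene thus entered the training fit only through treated arrays. In 2-AAF short and DEN short the treated arrays lay below it too. The 2-AAF long rats had 6.49, 6.79 and 6.85, against 5.76, 5.81 and 5.75 in the GTX control (0.93 ± 0.33, adjusted p = 0.0326), where 27.5% of all probe sets were called. The DEN long rats had 6.29, 6.43 and 7.48 (0.96 ± 0.33, adjusted p = 0.0473). Neither group overlapped the control, and neither call survived every rat left out. The 2-AAF long call was lost without its rat 2 or rat 3 (0.89 and 0.86, adjusted p = 0.0941 and 0.0967) or without any of the 3 control rats (0.92 to 0.95, adjusted p = 0.0678 to 0.0789). The DEN long call was lost without its rat 3 (0.58, adjusted p = 0.341), without any control rat (0.94 to 0.98, adjusted p = 0.099 to 0.112), with no filter, with quantile normalization, with only the compared groups in the fit and with a replicate block (adjusted p = 0.0509 to 0.0693). The other 9 comparisons were not called, among them 1,4-Dioxane long with 6.53, 6.19 and 7.80 (1.21 ± 0.33, adjusted p = 0.127). In 3MeDAB long the difference was 0.51 ± 0.33 (adjusted p = 0.203), and it was called with only the compared groups in the fit (adjusted p = 0.0115).

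Ugt2b7 split the long groups of the test set. The Urethane long rats had 7.03, 8.16 and 7.81 and the DCP long rats 8.98, 7.89 and 5.46. The ME long rats had 4.65, 5.31 and 4.70 and the SN long rats 4.87, 4.34 and 4.72. No rat of Urethane or DCP was as low as any rat of ME or SN. In the test set the gene passed the filter on low values only through the 3 Urethane long rats and DCP long rats 1 and 2, so a difference of these groups was built into its being tested. Its p-values here are therefore those of the fit with no filter. Set against the other 3 long groups, the difference was 2.01 ± 0.43 in Urethane (adjusted p = 0.00606), 1.71 ± 0.43 in DCP (adjusted p = 0.00593), -2.02 ± 0.43 in SN (adjusted p = 0.0173) and -1.70 ± 0.43 in ME (adjusted p = 0.0638). The ME call of the filtered fit was thus absent with no filter, and in a fit of nothing but the compared groups neither SN nor ME was called (adjusted p = 0.075 and 0.139).

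DCP long rat 3, low in Ugt2b as well, was the lowest of its group, and without it the DCP difference was 2.70. With the filter, the DCP call was lost without rat 1 (0.94, adjusted p = 0.0799). The ME call of that fit was lost without each of its rats (adjusted p = 0.116 to 0.176), without DCP long rat 2, without any SN long rat, and without Urethane long rat 2 or rat 3 (adjusted p = 0.056 to 0.0705). The SN call was lost without each of its 3 rats (adjusted p = 0.0554 to 0.0757). The Urethane call of that fit kept its side of the threshold with every rat left out. Since the gene entered that fit only through its high groups, this is no independent support for the call.

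The short test groups of Ugt2b7 lay between 4.36 and 5.05 and none was called against the others. Within a compound, the long group was above the short by 3.07 ± 0.52 in Urethane (adjusted p = 0.00156 with no filter) and by 2.67 ± 0.52 in DCP (adjusted p = 0.000634), with no overlap. In ME the difference was 0.41 ± 0.52 (adjusted p = 0.76) and in SN -0.20 ± 0.52 (adjusted p = 0.917). Every short array lay below the filter.

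**Figure D3:**
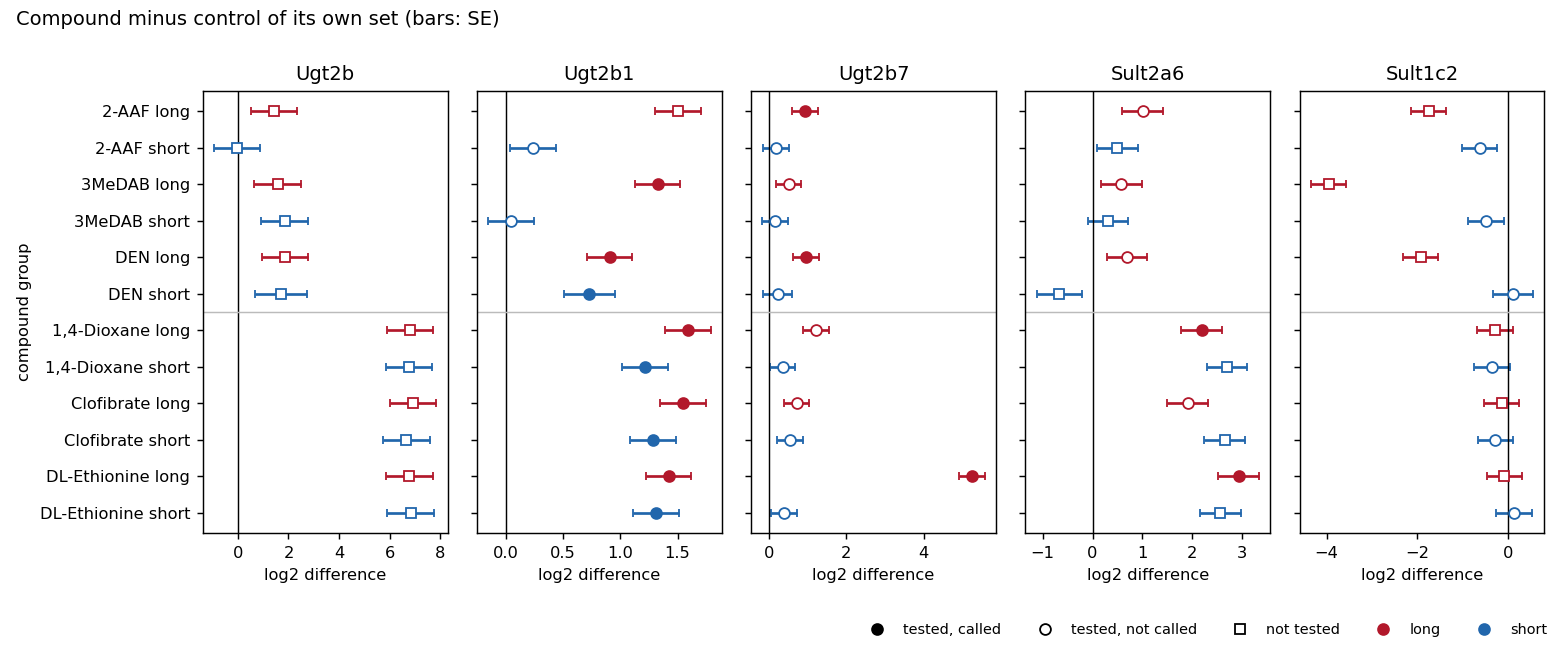
Log2 difference of each training group from the control of its own set (x axis, bars SE) for 5 members, groups down the page; filled circles were called, open circles were not, and squares were not tested. All 12 differences lie above 0 for Ugt2b1 and Ugt2b7, and the 6 NGTX differences of Ugt2b lie between 6.66 and 6.93.

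Sult2a6, a bile acid and hydroxysteroid sulfotransferase, was higher than in control in DL-Ethionine long and 1,4-Dioxane long. The DL-Ethionine long rats had 13.18, 13.00 and 13.29, against 11.51, 9.68 and 9.49 in the NGTX control (2.93 ± 0.41, adjusted p = 4.54e-07). The 1,4-Dioxane long rats had 12.93, 11.23 and 13.07 (2.19 ± 0.41, adjusted p = 0.015) and the Clofibrate long rats 11.15, 12.75 and 12.50 (1.91 ± 0.41, adjusted p = 0.0527, not called). The lowest rat of each of the last 2 groups lay below NGTX control rat 1. These differences refer to the same 3 controls as the short ones that had singled the gene out. A response of Sult2a6 to the compounds cannot be told apart from a low level in these controls. Without control rat 1 the Clofibrate difference was 2.55 and called (adjusted p = 0.000764), as it was without Clofibrate long rat 1 (2.40, adjusted p = 0.00819). The 1,4-Dioxane call was lost without its rat 1 or rat 3 (1.93 and 1.86, adjusted p = 0.147 and 0.185) or without control rat 2 or rat 3 (1.91 and 1.82, adjusted p = 0.152 and 0.166).

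The short NGTX groups, described without a test, had tightly grouped Sult2a6 signals. They ran from 12.57 to 13.10 over the 9 rats, all above the 3 controls, with differences of 2.56 to 2.69. In the GTX set the long groups ran from 11.91 to 12.71, against 11.40, 11.75 and 11.37 in the control. No long GTX array overlapped the control, but the differences of 1.00 ± 0.41 in 2-AAF, 0.58 ± 0.41 in 3MeDAB and 0.69 ± 0.41 in DEN were not called (adjusted p = 0.0655, 0.243 and 0.297). In a fit of nothing but the compared groups, all 3 were called (adjusted p = 0.0167, 0.0111 and 0.0151). The same fit ended the 1,4-Dioxane long call of the gene (adjusted p = 0.186), as did a fit of the arrays of its set (adjusted p = 0.0693). The 2 DEN short rats had 10.50 and 11.18, below all 3 controls.

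The NGTX and GTX controls differed in Sult2a6 spread, at 10.23 ± 1.12 and 11.51 ± 0.21 (SD, n = 3 each), on scales normalized apart. The mean effect of the GTX compounds minus that of the NGTX compounds at the short duration, which had singled the gene out, was -2.59 ± 0.48. It was -3.23 without NGTX control rat 1, and -1.30 with no controls, between sets. DL-Ethionine long livers also had the macrophage and endothelial differences given above.

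DCP had the highest Sult2a6 of both durations among the test compounds. The DCP long rats had 13.02, 12.82 and 12.86, above all 9 other long rats, and were higher than the other 3 groups by 1.25 ± 0.40 (adjusted p = 0.0232). The DCP short rats had 11.86, 12.10 and 11.61, higher by 1.15 ± 0.40 (adjusted p = 0.0291), although Urethane short rat 3 with 12.10 reached their level. The other short rats ran from 9.89 to 12.10. Both DCP calls were lost without any single rat of the DCP group, at adjusted p = 0.0584 to 0.082 for the long and 0.0509 to 0.11 for the short group. In DCP long all 3 endothelial markers were called higher too, at 8.69 to 8.76 against 7.88 to 8.44, and their part in the Sult2a6 and Ugt2b7 signals was not tested. Of all probe sets 15.7% were called higher in that comparison.

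Within ME, Sult2a6 was higher in the long rats (11.67, 12.01 and 12.29) than in the short rats (10.31, 9.89 and 10.93), by 1.61 ± 0.49 (adjusted p = 0.0352). The call was lost without ME long rat 2 or rat 3 or ME short rat 1 or rat 2 (1.37 to 1.60, adjusted p = 0.0942 to 0.112) and with only ME arrays in the fit (adjusted p = 0.0534). In DCP the long group was higher than the short with no overlap, by 1.04 ± 0.49, and was not called (adjusted p = 0.109) except with only DCP arrays in the fit (adjusted p = 0.00178). In Urethane the difference was 0.94 ± 0.49 (adjusted p = 0.244), and 1.61 (adjusted p = 0.0259) without Urethane short rat 3.

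Sult2a1, a hydroxysteroid sulfotransferase whose promoter nearly matches that of Sult2a6, had a signal close to the lowest of the array everywhere. It ran from 4.24 to 4.78 in the GTX set, from 3.72 to 4.46 in the NGTX set and from 3.03 to 3.68 in the test set. At its highest array it lay above 19.1% of probe sets, and at its median above 8.5%. It failed the filter on low values in both fits and was not tested, so 5 of the 6 members passed. All neighbouring groups in the order of its means overlapped within each set, 6 of 6 in GTX, 6 of 6 in NGTX and 7 of 7 in test.

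Sult1c2, a sulfotransferase of the 1C subfamily, was low in the long GTX groups, which are described without a test. The 3MeDAB long rats had 4.38, 4.74 and 4.38, against 8.74, 8.43 and 8.22 in the GTX control, a difference of -3.96 ± 0.39. The DEN long rats had 6.38, 6.37 and 6.84 (-1.93 ± 0.39) and the 2-AAF long rats 8.18, 5.29 and 6.65 (-1.75 ± 0.39). No array of these groups overlapped the control, and the 2-AAF rats were the most spread, with a difference of -1.05 without rat 2. The 3MeDAB rats lay below every other rat of the set.

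In the 3 long NGTX groups the Sult1c2 signal was within 0.30 of its control on average. The rats ran from 8.61 to 9.22, against 9.15, 9.09 and 8.97 in the NGTX control, with differences of -0.30 ± 0.39 in 1,4-Dioxane, -0.15 ± 0.39 in Clofibrate and -0.09 ± 0.39 in DL-Ethionine. The short groups of both sets were tested, and 0 of 6 were called by limma (adjusted p from 0.374 to 0.917), nor was any unadjusted p under 0.05. The largest of these differences was -0.63 ± 0.39 in 2-AAF short, whose rats had 7.63, 7.99 and 7.87.

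The 3MeDAB long and DEN long livers also had 3 of 4 macrophage markers called higher, at mean levels of 10.74 to 11.10 and 11.02 to 11.20, against 10.21 to 10.50 in the GTX control. In 2-AAF long 3 of 4 were called lower, at 9.62 to 10.06. The hepatocyte markers had 2 calls lower and 1 higher in 3MeDAB long, 1 lower in 2-AAF long and none in DEN long. Both pancreas markers that passed the filter were called lower in all 3 long GTX groups, at 7.49 to 8.75 against 9.32 to 9.38, and in DL-Ethionine long, at 6.83 to 7.04 against 9.17 to 9.24. Of all probe sets 31.3% were called higher and 18.4% lower in 3MeDAB long, and 7.92% and 6.32% in DEN long. The shares were 12.9% and 14.6% in 2-AAF long and 27.2% and 21.4% in DL-Ethionine long. The part of these markers in the member signals was not tested.

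In the test set, which played no part in choosing Sult1c2, DCP long was lower than the other long groups. The DCP long rats had 6.59, 5.82 and 7.95, a difference of -1.69 ± 0.41 (adjusted p = 0.00385). Rats of the other 3 long groups ran from 7.07 to 10.09, so DCP rat 3 overlapped them. Without DCP long rat 2 the difference was -1.21 and the call was lost (adjusted p = 0.0518). The SN long rats had 10.09, 7.87 and 8.96, with a difference of 1.22 ± 0.41 that was not called (adjusted p = 0.0988) except without SN long rat 2 (1.77, adjusted p = 0.0447) or DCP long rat 3 (1.42, adjusted p = 0.0383). No short test group was called, and no compound of the test set differed between long and short by a call, with DCP at -1.22 ± 0.50 (adjusted p = 0.0648). Without DCP long rat 3 the DCP difference was -1.80 and called (adjusted p = 0.00874).

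**Figure D4:**
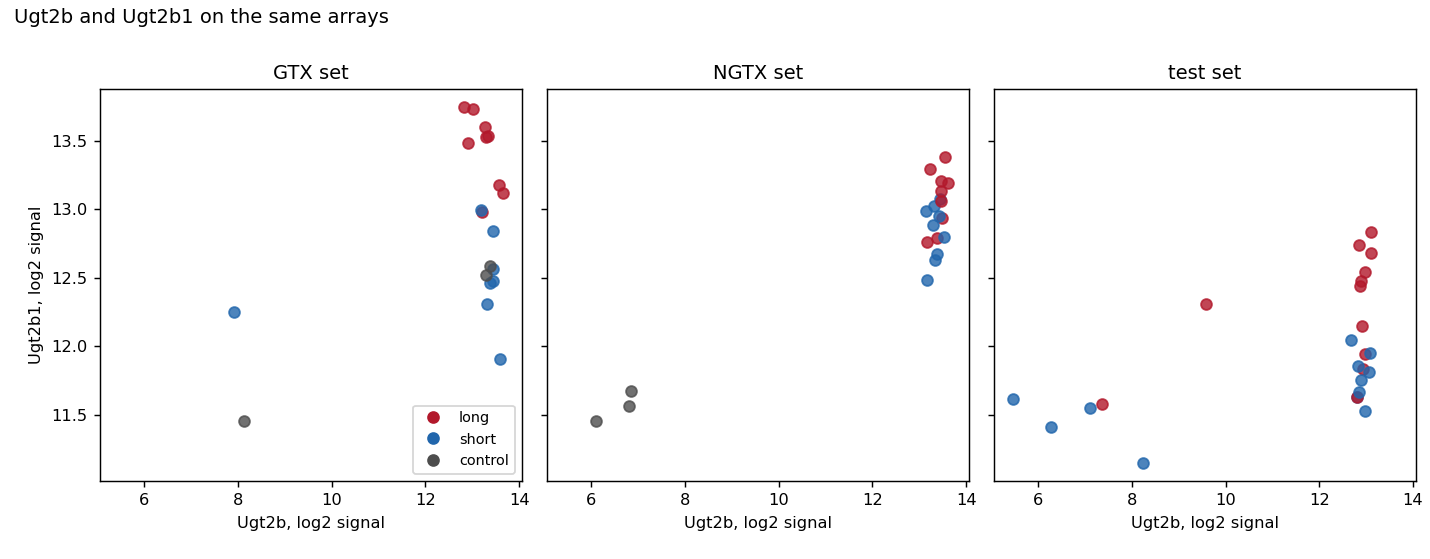
Ugt2b1 (y axis) against Ugt2b (x axis), log2 signal of the brighter Ugt2b and the Ugt2b1 probe set on the same arrays, 1 panel per set; points are rats, coloured by long, short and control. The 3 NGTX controls are low in both, and rats high in Ugt2b run from 11.53 to 13.75 in Ugt2b1.

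Across arrays, Ugt2b1 was the gene whose signal was most like that of Ugt2b, by Pearson's r over 65 arrays centred on the mean of each set. The value was 0.62 over all arrays, -0.19 within the 54 high arrays and 0.39 within the 11 low arrays. This split was made on Ugt2b itself, which narrows its range within each part. The values within the parts therefore cannot show what the 0.62 rests on. The rat with the lowest Ugt2b of a group was also the lowest in Ugt2b1 in 12 of 22 groups and in Ugt2b7 in 11. It was the lowest in Sult1c2 in 10 groups and in Sult2a6 and Sult2a1 in 8 each. With so few rats per group, some matches arise for any probe set, and their number over other genes was not counted. In 14 of the groups every rat was high in Ugt2b, so the lowest was not a low liver. In the 7 groups with rats on both sides of the gap, every low rat had less Ugt2b1 than every high rat of its group. The values were 11.46 against 12.59 and 12.52 in the GTX control, and only 11.58 against 11.63 and 11.83 in SN long. Ugt2b7 did the same in these groups except the GTX control. This was seen in the data, was not counted for other genes and was not tested. Centred on group means, r with Ugt2b was 0.60 for Ugt2b1, 0.32 for Ugt2b7 and 0.07 for Sult1c2. For Sult2a6 and Sult2a1 it was -0.23 and -0.30. These arrays share treatments, and no p is given.

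The genes most like Ugt2b1 were Gsta3, a glutathione transferase (r = 0.80), Aldh1a1, an aldehyde dehydrogenase (0.79), and Abcc3, an exporter of glucuronides (0.74). Sult2a6 was also most like Gsta3 (0.65), and then Fut1 (0.61) and Atp5f1c (0.59). For Ugt2b7 they were Mdh2 (0.78), Uqcrfs1 (0.77) and Atp5f1d (0.77), genes of mitochondrial energy metabolism. Sult1c2 was most like its relative Sult1c2a (0.81), then Ripply1 (0.76) and Pon3 (0.76), and Sult2a1, near the floor, was most like Prlr (0.52), Crb2 (0.49) and Ahnak2 (0.47). Centred on the mean of each group, the r of Sult2a6 with Gsta3 was 0.64 and that of Ugt2b1 with Gsta3 was 0.25. That of Ugt2b7 was 0.24 with Mdh2, 0.37 with Uqcrfs1 and 0.46 with Atp5f1d. Arrays of a group share their treatment in the first kind of value.

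Other genes of the 2 reactions were counted in lists of 27 glucuronidation, 23 sulfonation and 20 regulator genes, of which 8, 19 and 14 passed the filter in the training fit. For glucuronidation, 11 of 96 tests against control were called higher and 6 lower, for sulfonation 14 and 35 of 228, and for the regulators 15 and 28 of 168. Over all probe sets, 7.98% were called higher and 6.91% lower. In a single comparison the median difference of all probe sets lay between -0.02 and 0.07.

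Among glucuronidation genes the largest change was in Ugt2b10, a further UGT2B gene, which fell in DL-Ethionine long to 7.42 ± 0.24 against 11.38 ± 0.14 in control (SD, n = 3 each), by -3.96 ± 0.18 (adjusted p = 9.8e-18). It moved opposite to Ugt2b7 in the same livers. Ugp2, which makes UDP-glucose, fell there too (-1.28 ± 0.17, adjusted p = 2.02e-07). Ugdh, which oxidises UDP-glucose to UDP-glucuronic acid, rose in 2-AAF long (0.79 ± 0.12, adjusted p = 1.13e-05), and Slc35b1, a carrier of the endoplasmic reticulum, rose in 3MeDAB long (1.00 ± 0.17, adjusted p = 1.51e-05). Of the 8 genes, 3 rose and 2 fell in DL-Ethionine long (median difference 0.09), 2 rose and 4 fell in 3MeDAB long (-0.19), and 3 rose and none fell in 2-AAF long (0.14). Of all probe sets 27.2% rose and 21.4% fell in DL-Ethionine long, 31.3% and 18.4% in 3MeDAB long, and 12.9% and 14.6% in 2-AAF long.

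Of the 19 sulfonation genes, 12 fell and 2 rose in 3MeDAB long (median difference -0.36), 10 fell and 4 rose in DL-Ethionine long (-0.33), and 7 fell and 3 rose in 2-AAF long (-0.07). Sult1c3, which RefSeq also lists as HAST-I, the hydroxyarylamine sulfotransferase, fell to 8.64 ± 1.24 in 3MeDAB long, against 13.27 ± 0.10 in control (-4.63 ± 0.30, adjusted p = 1.32e-13). Sult1c2a, a close relative of Sult1c2, fell there by 2.97 on the log2 scale (SE 0.28, adjusted p = 3.28e-10). In DL-Ethionine long Slc13a4, a sulfate transporter, fell (-2.18 ± 0.36, adjusted p = 6.68e-06) and Sult2a2, a hydroxysteroid sulfotransferase, rose (2.59 ± 0.63, adjusted p = 0.000937).

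Of the regulators, Onecut1, a liver transcription factor, fell in 2-AAF long to 5.93 ± 0.06 against 10.28 ± 0.30 in control (-4.35 ± 0.76, adjusted p = 7.39e-05). Nr1i3, which encodes CAR, fell in DL-Ethionine long (-3.63 ± 0.43, adjusted p = 2.15e-08). Ghr, the growth hormone receptor, and Cebpa, a liver transcription factor, fell in 3MeDAB long (-1.76 ± 0.17 and -1.46 ± 0.19, adjusted p = 3.86e-10 and 1.72e-07). In DL-Ethionine long 6 of 14 regulators fell and 2 rose, where 21.4% of all probe sets fell and 27.2% rose. In DEN long 7 fell and none rose, against 6.32% and 7.92% of all, and in 1,4-Dioxane long and Clofibrate long none was called, as with nearly all probe sets.

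**Figure D5:**
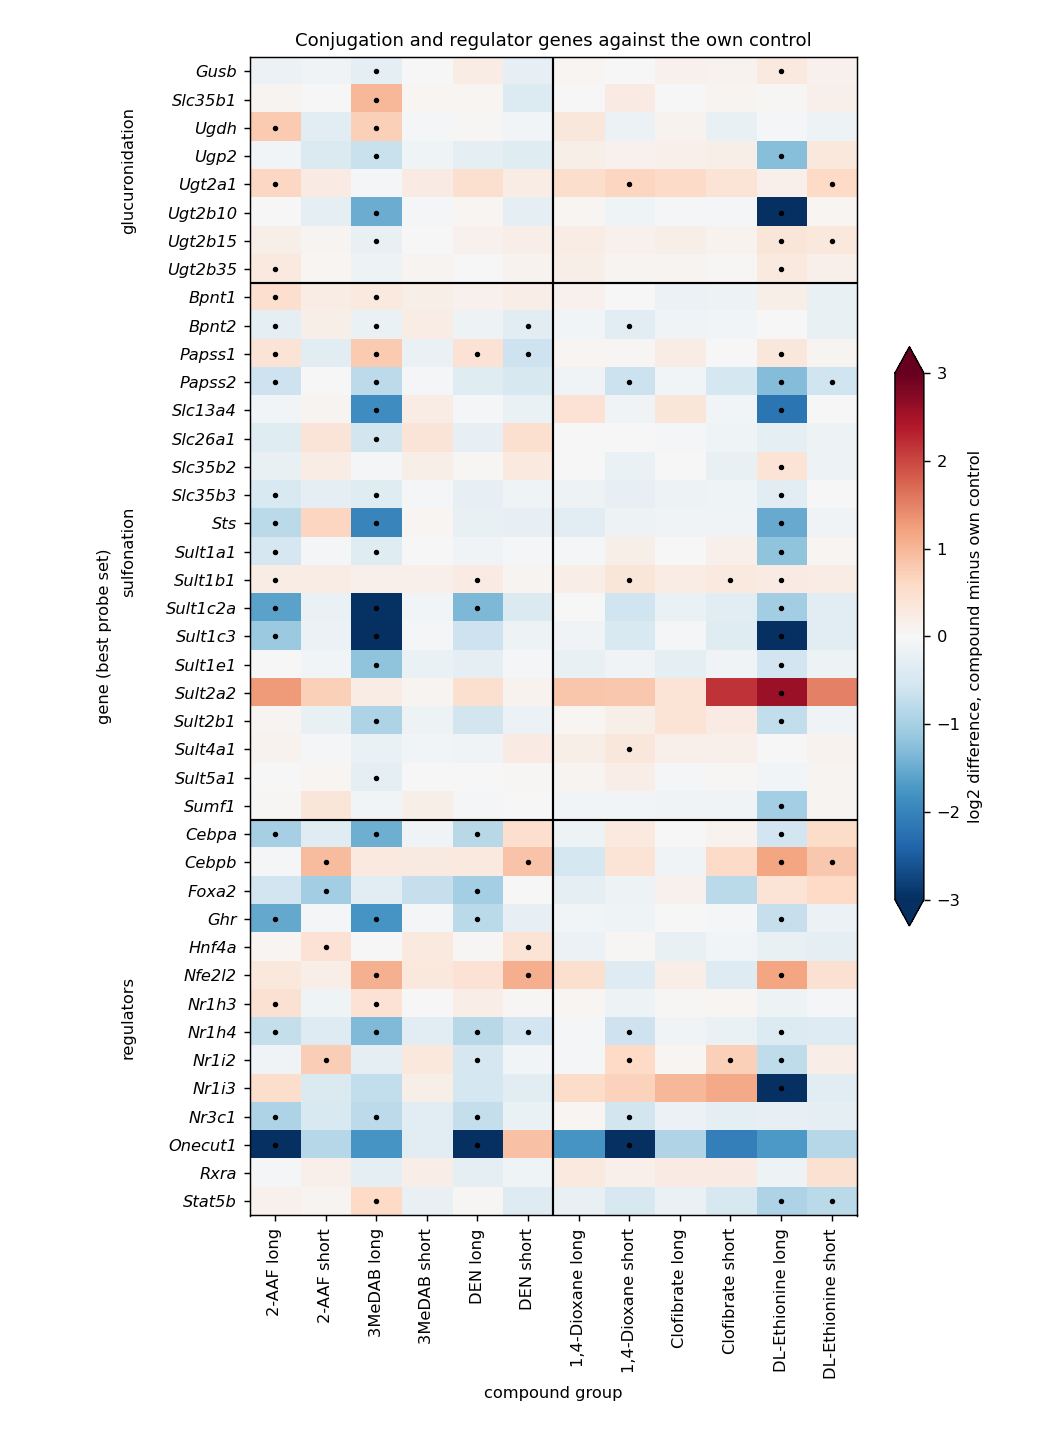
Log2 difference of 41 listed genes (rows, by list) from the control of their own set in 12 training groups (columns); colour runs to 3 either way, and dots mark calls, 109 of 492 cells. Most dots lie in 2-AAF long, 3MeDAB long and DL-Ethionine long.

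In the test set, the lists had most calls in DCP. Against the other 3 long groups, 10 of 19 sulfonation genes were lower in DCP long and 2 higher (median difference -0.22, with 17.1% of all probe sets lower and 15.7% higher). Sult1c3 (-1.33 ± 0.11, adjusted p = 1.31e-07), Sult1e1, the estrogen sulfotransferase (-1.19 ± 0.14, adjusted p = 6.66e-06), and Slc26a1, a sulfate transporter (-1.17 ± 0.08, adjusted p = 1.24e-08), were among the lower ones. Sult2a2 was higher in DCP short, at 9.42 ± 1.30 (SD, n = 3) against a mean of 5.06 in the other 3 groups (4.36 ± 0.53, adjusted p = 3.2e-06). In DCP short 7 of 15 regulators were lower and 2 higher, where 25.1% of all probe sets were lower and 14.5% higher, with Nr1i3 at -1.17 ± 0.18, Nr1i2 (PXR) at -0.65 ± 0.12, Rxra at -0.52 ± 0.11 and Nfe2l2 (NRF2) at 0.76 ± 0.15 (adjusted p = 4.43e-05, 0.000191, 0.000966 and 0.000593). Of 8 glucuronidation genes, Ugdh was higher in Urethane long (0.70 ± 0.06, adjusted p = 1.85e-06) and Slc35b1 lower in DCP short (-0.54 ± 0.07, adjusted p = 5.76e-06). Over the 8 test comparisons the 3 lists had 26 calls higher (7.74%) and 39 lower (11.6%) in 336 tests, against 6.81% and 7.94% of all probe sets.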

How the data were processed

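Liver RNA of 65 rats was hybridised to 1-colour Affymetrix rat arrays, with an array for each. The values are on the log2 scale and were deposited as the authors made them by RMA, per the labels' design text, which gives no version, and 1 array that failed was left out by the authors. The 3 sets have different lowest and highest values and were compared only within themselves, apart from a check between treated arrays. Of 31099 probe sets, 20832 name 1 gene, 436 several and 9831 none, among them 57 controls. No sample column was left unused.

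The 41 arrays of the GTX and NGTX sets and the 24 test arrays were fitted apart with limma 3.58.1 in R 4.3.3 (lmFit and eBayes, 1 mean per group), over probe sets above the median of all values (6.21 and 5.64) in at least 2 arrays. This left 18034 and 17249 probe sets. For Ugt2b7 in the test set, which passed the filter only through its high groups, p-values are those with no filter. Residual degrees of freedom were 27 and 16, and tests were two-sided. A call is a Benjamini-Hochberg adjusted p under 0.05 over all probe sets of a comparison, and SE is the standard error with limma's moderated variance. The p-values set a difference between groups against the spread between rats within groups, and the few rats limit the precision. The labels used here give no housing or extraction. If these went by group, their effect cannot be told apart from that of the compound. On simulated data with 200 changed probe sets, 88% of changes of log2 1 and all changes of log2 2 were recovered for DL-Ethionine long, and 94% and all for DCP long. Unchanged probe sets called numbered 10 and 6. The simulated noise was normal and independent, and far fewer probe sets changed than were called in these comparisons. These rates therefore do not cover a signal that splits between rats, as that of Ugt2b does.

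Members and lists were chosen with earlier results of these data known. Listed genes were named by a fixed rule, up to 4 per list with the largest called change and no overlap of arrays, and the most alike genes are the 3 with the highest r per member. Alternatives were the filter, a trended robust fit, quantile normalization, fewer arrays in the fit, the handling of several probe sets, a replicate block and each rat left out. Promoters came from RefSeq, GRCr8.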

Additional observations from a re-analysis of the deposited data

Results flagged for a closer look

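The members whose signal differed between the durations of a compound, by limma's test of long minus short with Benjamini-Hochberg adjustment, are listed here for a closer look. No duration has a control of its own time, so these are differences of level and not of treatment effect. Among the training compounds, Ugt2b1 was higher in 3MeDAB long than in 3MeDAB short by 1.28 (log2, adjusted p = 2.62e-06), with no overlap in 3 against 3 rats. Ugt2b7 was higher in DL-Ethionine long than short by 4.86 (adjusted p = 1.64e-13), also with no overlap. In the test set, Ugt2b1 was higher at the long duration in DCP by 0.756 (adjusted p = 0.00147), in ME by 0.754 (adjusted p = 0.00688, and 0.0834 with only ME arrays in the fit) and in Urethane by 1.01 (adjusted p = 0.00107). Ugt2b7 was above the short group at the long duration in DCP by 2.67 (adjusted p = 0.000634 with no filter) and in Urethane by 3.07 (adjusted p = 0.00156), and it had passed the filter in this set only through these long groups. Sult2a6 was higher at the long duration in ME by 1.61 (adjusted p = 0.0352), a call that leaving out any of 4 single rats removed, as did a fit of ME arrays alone (adjusted p = 0.0534). Low-Ugt2b livers stand on the short side of several of these differences, namely rats 2 and 3 of DCP short, rat 1 of ME short and rat 3 of Urethane short, and rat 3 of DCP long stands on the long side. Their part in the differences was not tested.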

How the results depend on the processing

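Member calls against own control were 13 to 15 (main 14) under the alternatives that keep all rats and 11 to 16 with 1 rat left out. Calls between training durations were 2 to 3 in both cases (main 2), test compounds against the other 3 gave 7 to 9 and 6 to 9 (main 9), and test durations 5 to 6 and 5 to 8 (main 6). Of 31 member calls, 19 were kept with every rat left out and 12 were lost without at least 1. The counts of test set calls and these 31 include the Ugt2b7 calls of the filtered test fit. Ugt2b7 entered that fit only through its high groups. List calls were 94 to 113 (main 109) against control and 54 to 69 (main 65) in the test set, or 98 to 127 and 51 to 66 with 1 rat left out. The class difference of Ugt2b was -5.21 at the long and -5.57 at the short duration and depended on the controls, at -0.194 and -0.556 between treated arrays alone, and from -6.95 to -4.33 and from -7.31 to -4.69 with 1 rat left out. That of Sult2a6 at the short duration was -1.30 between treated arrays alone and -3.23 to -2.22 with 1 rat left out, and that of Sult1c2 at the long duration -2.98 and -2.62 to -2.14. The r between Ugt2b and Ugt2b1 was -0.190 within the 54 arrays above the gap and 0.394 within the 11 below it, an alternative chosen after seeing the data. The parts were cut on Ugt2b itself, which narrows its range in each. Centred on group means, r was 0.254 for Ugt2b1 with Gsta3, 0.242 for Ugt2b7 with Mdh2 and 0.488 for Sult1c2 with Sult1c2a. Whether rats of the same number share more than a number was not settled. Of same-number pairs, 7 of 63 in NGTX, 16 of 57 in GTX and 16 of 84 in test correlated over 0.1. Their median correlation was -0.007, 0.002 and -0.015, against 0.012, 0.008 and 0.006 for pairs of different numbers. A replicate block left 13, 2, 9 and 6 member calls and 109 and 60 list calls, with Ugt2b7 in DEN long the 1 member call lost (adjusted p = 0.0609). The causes of these shifts were not tested.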
